A study of Mus musculus with 36 samples.

Results

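CpG methylation was described at the genes of 10 transcription factors of the B lineage in the mouse pre-B cell line B3, namely Ebf1, Pax5, Tcf3, Irf4, Irf8, Bach2, Spib, Spi1, Bcl11a and Pou2af1. Their CpG clusters, runs of at least 20 listed cytosine positions at most 100 bp apart, were taken where they overlapped the gene or 5 kb either side of it in the GENCODE M21 annotation of GRCm38. This gave 21 of the 18009 clusters in the table, spread over 8 of the 10 genes. Spi1 (chr2:91082390-91115756) and Pou2af1 (chr9:51213708-51240080) had no cluster, and their methylation was not analysed here. Of the 21 clusters, 9 lay within 1000 bp of an annotated transcription start of their gene and are called promoter clusters, 7 lay elsewhere in the gene body and 5 in the flanks.

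Reduced representation bisulfite sequencing (RRBS), which reads methylation near the cut sites of the enzyme MspI, was performed on 36 libraries. The Ikaros series (18 libraries) was B3 transduced with a retroviral vector for haemagglutinin-tagged wild-type Ikaros fused to the ERt2 hormone-binding domain, followed by IRES-GFP, and the Control series (18 libraries) was B3 with ERt2-IRES-GFP alone. The fusion protein moves to the nucleus when 4-hydroxytamoxifen (4-OHT) is added, and both series received 0.5 uM 4-OHT and were collected at 0, 2, 6, 12, 18 and 24 h with 3 replicates each. The labels give this dose at 0 h as well, whereas the study's methods describe the 0 h cells as not induced. These methods also state that the 0 h cells were obtained separately. A change from 0 h to a later time therefore cannot be told apart from this separate collection. Each series was its own GFP-sorted population, so the Ikaros fusion and any other difference between these populations cannot be told apart. These libraries hold no measure of expression, so neither the induction of Ikaros nor the pre-B identity of the cells was checked with them.

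The genes cover successive layers of B-cell commitment. Tcf3 encodes the E2A proteins, which act with Ebf1 early in the lineage, Pax5 maintains B-cell identity, and Irf4 and Irf8 are partly redundant factors of the pre-B stage that bind DNA together with the ETS factors encoded by Spi1 (PU.1) and Spib. Bach2 is a repressor that acts at the pre-B checkpoint and later against plasma cell fate, Bcl11a is a zinc finger factor needed early in lymphoid development, and Pou2af1 encodes a coactivator of octamer-binding factors. In mammalian cells CpG-rich promoters are mostly free of methylation, and CpGs within transcribed gene bodies are mostly methylated.

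The values are smoothed levels, given here in percent of methylation averaged over the positions of a cluster that had a value in every library. Of the 1177 listed positions in the clusters of these genes, 561 were forward-strand and 616 reverse-strand cytosines. A CpG can thus count once for each strand, so position counts exceed the number of CpG sites. The number of reads behind them is not part of the tables, so the depth at each position is unknown and the precision is described only by the spread between libraries. At 0.110% to 11.6% of positions a library had no value, and 21% to 59.1% of its values were exactly 0 or 1. On measures of the whole table, 3 libraries were noted as standing apart. Control 0 h replicate 1 had the most positions without a value (11.6%), and Ikaros 24 h replicate 2 the most values at exactly 0 or 1 (59.1%). Control 24 h replicate 2 lay 73.0% of the way from the Control to the Ikaros mean over 698 clusters, where the other Control libraries at 0 and 24 h lay between 3.07% and 22.4%. The 24 libraries at 2 to 18 h chose these clusters and were not placed on this measure. The series test of the 2 called clusters, and the values at 0 and 24 h of the Irf4 and Spib clusters, are also given without these 3 libraries.

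The sequences of 6 clusters are shown because the later results turn on them, namely the 3 clusters of intermediate level, the Bach2 cluster that differed between the series, and an unmethylated and a fully methylated cluster for comparison. They are GRCm38 sequence read 5′ to 3′ on the strand of the gene, at most 300 bases each, and capitals mark the CG dinucleotides with a listed position.
Irf4 coding exon, chr13:30750615-30750781, plus strand: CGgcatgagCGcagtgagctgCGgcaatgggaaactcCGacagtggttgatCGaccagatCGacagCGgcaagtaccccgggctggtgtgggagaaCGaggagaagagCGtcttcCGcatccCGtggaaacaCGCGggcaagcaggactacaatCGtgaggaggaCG
Spib coding exon, chr7:44527986-44528160, minus strand: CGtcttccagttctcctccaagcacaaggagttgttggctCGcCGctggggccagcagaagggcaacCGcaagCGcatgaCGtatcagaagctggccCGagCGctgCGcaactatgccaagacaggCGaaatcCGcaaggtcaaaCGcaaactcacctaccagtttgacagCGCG
Spib downstream (Mybpc2), chr7:44521731-44522030, minus strand: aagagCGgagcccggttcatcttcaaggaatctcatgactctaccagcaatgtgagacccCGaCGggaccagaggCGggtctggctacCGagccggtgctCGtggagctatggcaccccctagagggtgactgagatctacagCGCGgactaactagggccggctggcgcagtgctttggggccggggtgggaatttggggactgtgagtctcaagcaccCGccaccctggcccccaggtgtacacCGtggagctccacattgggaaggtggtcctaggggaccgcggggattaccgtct
Bach2 first intron, chr4:32239678-32239977, plus strand: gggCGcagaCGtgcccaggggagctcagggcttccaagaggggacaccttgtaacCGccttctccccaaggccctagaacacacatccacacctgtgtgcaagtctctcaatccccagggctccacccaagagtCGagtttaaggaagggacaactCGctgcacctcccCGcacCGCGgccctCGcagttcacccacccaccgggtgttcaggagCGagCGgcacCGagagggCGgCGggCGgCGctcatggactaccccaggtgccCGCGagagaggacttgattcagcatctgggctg
Ebf1 first intron, chr11:44618292-44618512, plus strand: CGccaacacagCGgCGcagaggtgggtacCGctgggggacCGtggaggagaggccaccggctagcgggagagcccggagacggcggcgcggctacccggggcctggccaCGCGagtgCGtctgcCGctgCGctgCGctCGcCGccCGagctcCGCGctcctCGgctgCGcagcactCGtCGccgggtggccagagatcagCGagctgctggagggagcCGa
Bcl11a coding exon, chr11:24164484-24164783, plus strand: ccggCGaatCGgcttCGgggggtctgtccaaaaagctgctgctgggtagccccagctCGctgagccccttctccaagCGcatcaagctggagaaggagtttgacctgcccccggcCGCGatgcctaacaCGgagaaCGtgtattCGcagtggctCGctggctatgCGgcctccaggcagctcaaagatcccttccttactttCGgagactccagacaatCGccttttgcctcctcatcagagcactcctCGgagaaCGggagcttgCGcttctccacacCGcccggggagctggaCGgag
The Irf4 stretch holds the start of the coding sequence for the DNA-binding domain of the factor, and the Spib stretch encodes part of its ETS domain, the part that contacts DNA. The Bcl11a stretch lies in coding sequence far downstream of the gene start, and the Spib downstream stretch belongs to the neighbouring gene Mybpc2, which encodes a myosin-binding protein of fast skeletal muscle.

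All 9 promoter clusters were almost free of methylation, with means over the 36 libraries from 0.205% to 0.982%. Among all 13839 promoter clusters of the table, 56.7% had a mean under 10%. That class is wider, as it takes in clusters within 1000 bp of a start of any gene. By that rule the cluster downstream of Tcf3, at a start of Uqcr11, would count as well. The start of Ebf1 was represented by a cluster in its first intron (chr11:44618292-44618511), 113 bp from an annotated inner start and beginning inside a coding exon. Its level had a median of 0% (0% to 1.74%) over the 18 Ikaros libraries and of 0.143% (0% to 0.935%) over the 18 Control libraries, and the groups overlapped. At 0.205%, its mean was the lowest of the 21 clusters.

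For Tcf3 (chr10:80409514-80433647, minus strand) the cluster spanned the transcription start and the UTR at chr10:80433147-80433859. Its median was 0.340% (0% to 2.29%) in Ikaros and 0.312% (0% to 1.35%) in Control. The Irf8 promoter cluster (chr8:120735796-120736485), also over a start and the UTR, had medians of 0% (0% to 2.89%) and 0.577% (0% to 1.42%). Only 12 of its 42 positions had a value in every library. In both genes the libraries of the series overlapped.

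Pax5 was covered in another way. No cluster lay within 1000 bp of the outermost annotated start of the gene (chr4:44524757-44710487, minus strand), and the nearest (chr4:44712031-44712252, mean 0.265%) lay 1544 bp upstream of it. The promoter cluster was at an inner start, chr4:44703351-44704636, where the antisense transcript 5730488B01Rik also starts. Bisulfite levels of this stretch cannot be assigned to either transcript. Its 198 positions with complete values had means from 0.280% to 4.42%, the widest spread of any promoter cluster in these genes, and its cluster level was 0.491% to 1.47% in Ikaros and 0.517% to 1.51% in Control. The farther upstream cluster (chr4:44714048-44714537) had the highest mean of the 14 clusters under 10%, at 1.51%.

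Bach2 had a large cluster over its start and UTR (chr4:32238443-32239355, 191 positions) with medians of 0.677% (0% to 1.25%) in Ikaros and 0.773% (0.432% to 1.47%) in Control. Another cluster followed in the first intron (chr4:32239538-32240118), 461 bp from an annotated inner start, with a mean of 0.692%. For Bcl11a the cluster upstream of the start (chr11:24076677-24077755), which overlaps the transcript Gm12063, had medians of 0.389% (0% to 2.20%) in Ikaros and 0.280% (0.0466% to 0.604%) in Control. A pair of further Bcl11a promoter clusters, centred 1778 and 3580 bp into the gene, had means of 0.332% and 0.607%, the latter from only 4 of its 31 positions. The remaining flanking clusters were low as well. The cluster upstream of Ebf1 (chr11:44613274-44613453) had a mean of 0.411%, and the cluster downstream of Tcf3 (chr10:80406720-80406913), which is the promoter of Uqcr11, a subunit of respiratory complex III, had a mean of 0.206%.

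**Figure D1:**
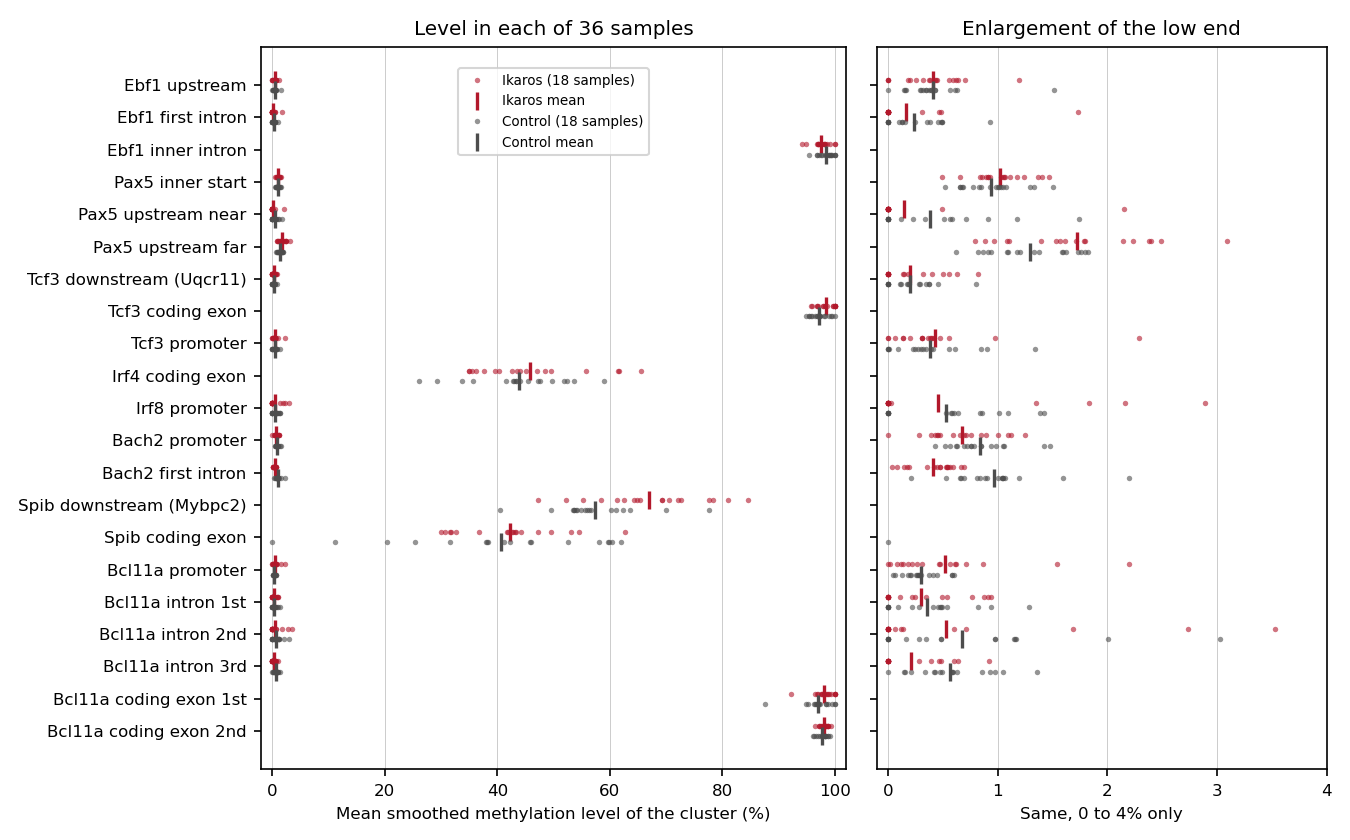
Level of each of the 21 clusters in every library (points, 18 per series) with the series mean (vertical tick), on the full scale from 0 to 100% and enlarged from 0 to 4%. The 14 low clusters reach at most 3.53% in any library, 4 gene body clusters lie at 87.7% or above, and the Irf4 exon and both Spib clusters spread over the middle of the scale.

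Within the gene bodies the levels split into low, intermediate and high clusters. Of the 7 gene body clusters, 4 had a mean over 90%, which was the case for 76.5% of all 1938 gene body clusters in the table. The Ebf1 cluster in an inner intron (chr11:44665363-44665525), centred 48127 bp into the gene, had medians of 97.6% (94.3% to 100%) in Ikaros and 98.8% (95.5% to 100%) in Control. Its mean of 98.1% was the highest of the 21 clusters, while the cluster in the first intron of the same gene had the lowest.

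The Tcf3 cluster in a coding exon near the end of the gene (chr10:80410521-80410753) had medians of 98.5% (95.8% to 100%) and 97.2% (94.8% to 100%), from 9 of its 24 positions. In Bcl11a the coding exon clusters 85647 and 86578 bp from the start had means of 97.5% and 98%. The nearer of them rested on 7 positions and ranged over 87.7% to 100%, and the farther rested on 46 positions and ranged over 96.1% to 99.3%. An intronic cluster of Bcl11a 3991 bp into the gene (chr11:24081955-24082140) was instead at 0.390% and was the gene body cluster with the lowest mean. It lay 1285 bp from an annotated start, so that it would count as a promoter cluster with a window of 2000 bp.

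A further 3 clusters had means from 10% to 90%, a class that held 11.1% of all clusters. The Irf4 cluster (chr13:30750615-30750780) had a mean of 44.8%, with medians of 43.8% (34.9% to 65.6%) in Ikaros and 43.7% (26.0% to 59.1%) in Control. It was the only cluster of Irf4 (chr13:30749226-30766976), so the start of this gene was not covered, and it lay 1308 bp from the nearest annotated start. With a window of 2000 bp it would count as a promoter cluster, and the promoter clusters would then not all be low. The means of its 20 positions lay between 42.8% and 47.2%, but smoothing makes neighbouring positions alike, so this does not show where the spread lies. The SD within a condition was 9.29 percentage points, compared with a median of 4.69 over all 1865 clusters of intermediate level and a 90th percentile of 10.6.

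The Spib coding exon cluster (chr7:44527986-44528159) had a mean of 41.4%. Its medians were 42.7% (30.0% to 62.7%) in Ikaros and 41.8% (0% to 61.9%) in Control. Its smoothed positions had means from 39.9% to 43.1%. The library at 0% was Control 0 h replicate 1, the one with the most missing positions. At 14.7 percentage points, the SD within a condition was above the 90th percentile of intermediate clusters. The neighbouring cluster downstream of Spib, in coding exons and an intron of Mybpc2 (chr7:44521641-44522121), had a mean of 62.2%, and its 16 complete positions ranged from 51.0% to 80.7%. The highest means were at the end away from Spib. Its SD within a condition was 8.44 points. Spib (chr7:44525993-44532071, minus strand) had no promoter cluster.

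**Figure D2:**
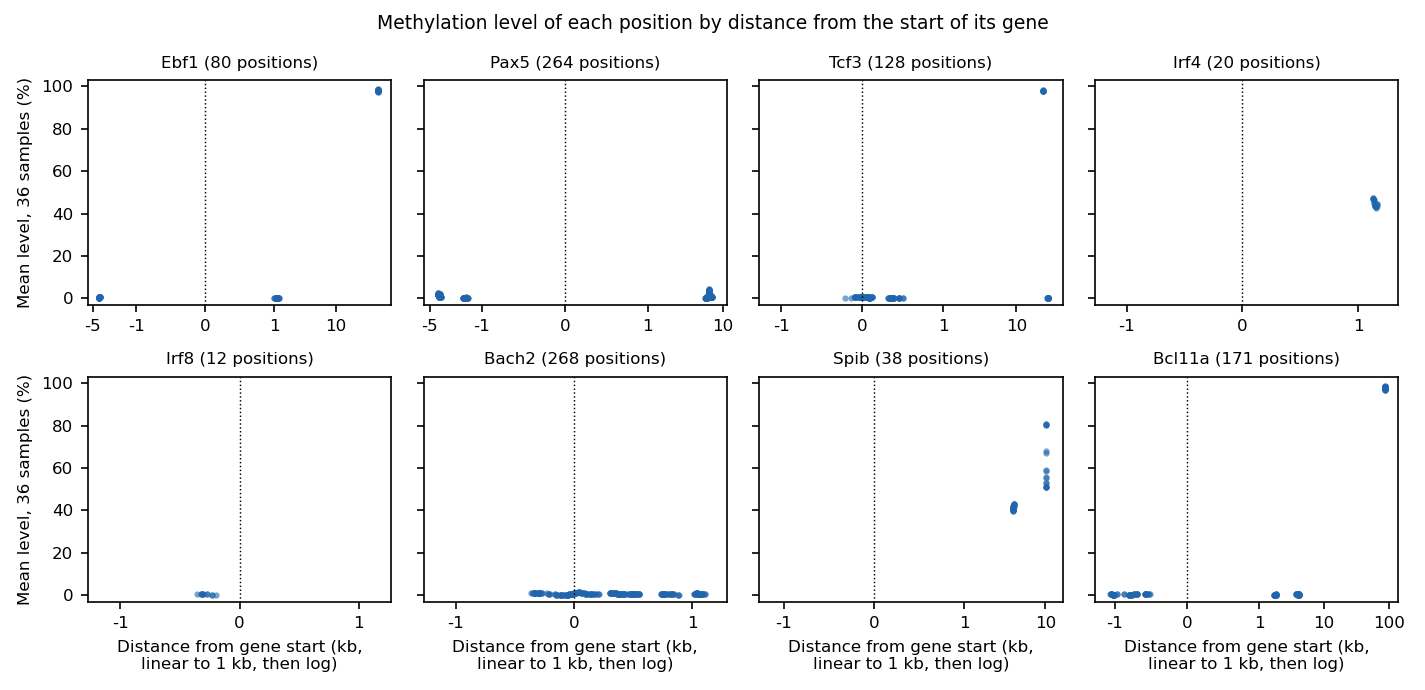
Mean level over 36 libraries of each position with complete values (points), by distance from the start of its gene in the direction of transcription (kb, linear to 1 kb and logarithmic beyond; dotted line at the start). Positions near starts lie close to 0%, those in the inner intron of Ebf1 and the coding exons of Tcf3 and Bcl11a lie at 97.0% to 98.7%, and those of Irf4 and Spib lie between 39.9% and 80.7%.

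The clusters differed in base composition as well. It was not used to choose the genes, but every cluster held at least 20 listed positions, so sparser stretches are absent. The 14 clusters under 10% had 6.11 to 15.3 CG dinucleotides per 100 bp (median 8.66), the 3 intermediate ones 6.22 to 9.58 (median 8) and the 4 over 90% had 4.75 to 7.33 (median 6.56). The medians of the same classes over all clusters were 10.2, 7.66 and 8.87. The Irf4 exon, with an observed-to-expected CpG ratio of 1.07, was the cluster richest in CpG by that measure among the 21, although it was methylated at an intermediate level, and the unmethylated Bach2 promoter followed at 1.05. The ranges of the classes overlapped.

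Sequence motifs were counted on both strands in windows of 300 bp at the cluster centres. TGGGAA, the core of sites bound by Ikaros, was in 4 of the 21 windows (Ebf1 upstream, Irf4 exon, Bach2 promoter and Spib downstream), compared with 16.1% of all 18009 windows. CAGGTG, an E-box bound by E2A proteins, was also in 4 of 21 (the far upstream cluster of Pax5, the Bach2 first intron and both Spib clusters), compared with 23.3% of all. The palindromic EBF1 motif was in none of the 21 and in 1.5% of all windows, and the MspI site CCGG, which the assay requires, was in 21 of 21 and 99.9%.

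The question of the design was whether the cells with inducible Ikaros differed from those with the empty vector. Of the 21 clusters, 2 differed. The cluster downstream of Spib was 9.66 percentage points higher in Ikaros, and that in the first intron of Bach2 was 0.555 points lower. These are 9.52% of the clusters, compared with 4.84% of all 16734 clusters tested (3.71% higher and 1.13% lower in Ikaros; limma on M-values with time as a factor, adjusted p under 0.05 after Benjamini-Hochberg adjustment over all clusters). At an unadjusted p under 0.05 the numbers were 5 of 21 (23.8%) and 14.8%. The median size of the difference was 0.237 points over the 21 clusters and 0.255 over all, with 11 of the 21 higher and 10 lower in Ikaros.

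Downstream of Spib, within Mybpc2, the 18 Ikaros libraries had a median of 67.4% (47.2% to 84.6%) and the 18 Control libraries one of 55.8% (40.4% to 77.6%). The ranges overlapped, but most Ikaros libraries lay above the Control median. The means were 67.1% ± 10.0 and 57.4% ± 7.96 (SD, n = 18 each), a difference of 9.66 points (95% interval 3.85 to 15.5) or 0.67 on the M-value scale, which is log2 (limma, adjusted p = 0.0396). The difference was widest at 6 h, with 72.1%, 81.0% and 84.6% in Ikaros and 54.2%, 54.9% and 62.3% in Control.

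By time point the difference at this cluster was 15.1 points at 0 h, 11.7 at 2 h and 22.1 at 6 h, and then 4.08 at 12 h, 3.93 at 18 h and 1.09 at 24 h. Without the 3 libraries that stood apart it was 16.8 points at 0 h and -2.19 at 24 h. With any single library of a time point left out, the difference stayed above 0 at 0, 2 and 6 h, whereas it lay between -1.36 and 10.3 points at 12 h, -1.81 and 10.3 at 18 h and -6.84 and 5.82 at 24 h, so the sign at these later times rests on single libraries. At 0, 2 and 6 h the 3 Ikaros libraries lay above the 3 Control libraries, and later they overlapped. Over all clusters, 13.6%, 13.7% and 12.5% had no overlap at these times. The test of a different time course in the series gave an adjusted p of 0.965 (limma, unadjusted p = 0.229), so these differences between time points were not past the threshold. Within the batches of the labels the difference was 9.54 points in batch 1, 16 in batch 2 (a single pair of libraries), 10.3 in batch 3 and 8.17 in batch 4.

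The call at the Spib downstream cluster was not stable. It was lost with the shares of missing and of 0-or-1 values as covariates (adjusted p = 0.477, M-value difference 0.55) and when all listed positions were used (adjusted p = 0.192, M-value difference 0.38), compared with 0.67 in the fit reported. It was also lost, with M-value differences close to that, with the median over positions (adjusted p = 0.152, 0.61), without the 0 h samples (0.145, 0.60) and without each of the replicate numbers (0.0669 to 0.237, M-value differences 0.62 to 0.70). With gaps of at most 50 bp it passed with a larger M-value difference (adjusted p = 0.0297, 1.03). Leaving out any of 20 libraries raised the adjusted p to between 0.0506 and 0.0680. Without the 3 libraries that stood apart the adjusted p was 0.0294.

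In the Bach2 first intron the 18 Ikaros libraries had a median of 0.474% (0.0356% to 0.693%) and the 18 Control libraries one of 0.954% (0.215% to 2.20%). All Ikaros libraries lay below the Control median, and the ranges overlapped. The means were 0.415% ± 0.204 and 0.970% ± 0.425 (SD, n = 18 each), a difference of -0.555 points (95% interval -0.787 to -0.322) or -0.22 on the M-value scale (limma, adjusted p = 0.0282). The difference at the single times was between -0.317 points (12 h) and -1.07 points (6 h). It was -0.691 at 6 h without Control 6 h replicate 2, -0.174 at 12 h without Control 12 h replicate 3, and at 18 h, where it was -0.403, it was -0.713 without Control 18 h replicate 1 and -0.0206 without Control 18 h replicate 3. At 0, 2, 6 and 24 h the libraries of the series did not overlap (13.4% of all clusters at 24 h). It was negative in each of the 4 batches, between -0.380 and -0.683 points.

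This difference lay close to the floor of the scale. Of the values at the positions of the cluster, 75.3% were at or below the limit of 0.01 that the M-value sets, and 38.0% in Ikaros and 9.67% in Control were exactly 0. Over all positions, the share of values at exactly 0 or 1 was also higher in many Ikaros libraries (26.9% to 59.1%) than in Control libraries (21% to 36.2%), and its part in the result was not tested on its own. A fit with the shares of missing and of 0-or-1 values together as covariates gave an adjusted p of 0.00379 and a wider M-value difference of -0.36. The larger Bach2 cluster over the start, with 39.0% and 19.1% of values at exactly 0, differed by -0.168 points (-0.384 to 0.0473; adjusted p = 0.987). This call was not stable either. It was lost with the median over positions in place of the mean (adjusted p = 0.661, M-value difference -0.13). It was also lost with gaps of at most 50 bp (adjusted p = 0.0571, M-value difference -0.38), without the 0 h samples (0.111, M-value difference -0.21) and without each of the replicate numbers (0.112 to 0.268, M-value differences -0.20 to -0.26), whereas without the 3 libraries that stood apart the adjusted p was 0.0291.

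**Figure D3:**
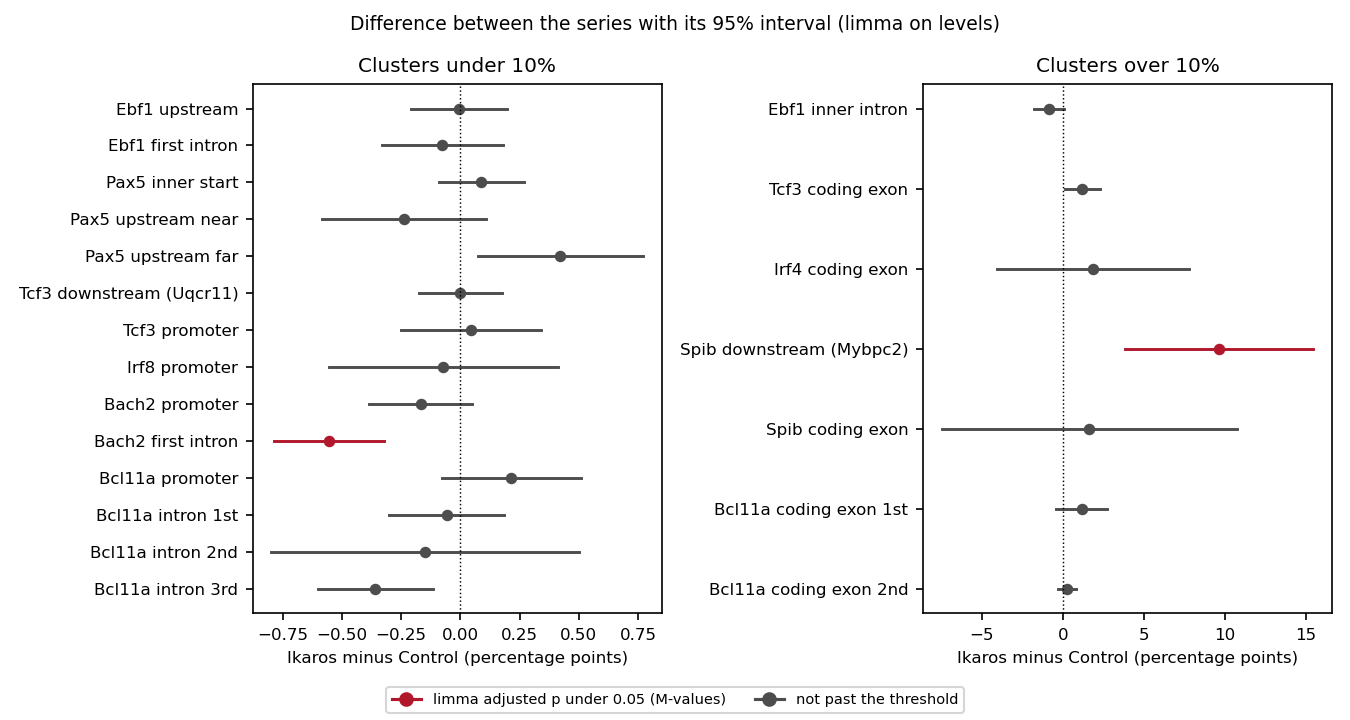
Difference between the series (Ikaros minus Control, percentage points) of the 21 clusters with its 95% interval from limma on levels, for clusters under 10% (left) and over 10% (right, wider scale). Red marks the adjusted p under 0.05 in the M-value test, at the Bach2 first intron (-0.555) and downstream of Spib (9.66).

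The other 19 clusters did not pass the threshold. Of these, 3 had an unadjusted p under 0.05, namely the far upstream cluster of Pax5 (0.423 points, 0.0730 to 0.772; limma, adjusted p = 0.241), the Tcf3 coding exon (1.21 points, 0.159 to 2.27; adjusted p = 0.216) and the nearer Bcl11a coding exon cluster (1.16 points, -0.413 to 2.73; adjusted p = 0.277). All 3 depended on the settings. For the Tcf3 exon (M-value difference 0.61) the adjusted p was 0.00829 (0.73) with all 24 listed positions in place of the 9 complete ones and 0.00430 (1.14) with clusters cut at gaps over 50 bp, but 0.840 (0.28) with the shares of missing and of 0-or-1 values as covariates and 0.718 (0.47) with the median over positions. For the nearer Bcl11a exon the M-value difference went from 0.55 to 0.05 with all listed positions (adjusted p = 0.922), and it was 0.87 with those covariates (adjusted p = 0.268). For the far upstream cluster of Pax5 it went from 0.25 to 0.57 with all listed positions (adjusted p = 0.0556) and to -0.03 with gaps of at most 50 bp (adjusted p = 0.929). The Bcl11a intronic cluster 3991 bp into the gene had a mean of 0.211% ± 0.298 in Ikaros and 0.569% ± 0.356 in Control (SD, n = 18 each), a difference of -0.359 points (-0.603 to -0.115) with an adjusted p of 0.0802 on levels and 0.503 on M-values. As in Bach2, more of its values were exactly 0 in Ikaros (68.7%) than in Control (16.9%).

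At the intermediate exon clusters the intervals were wide. The Irf4 exon was at 45.8% ± 9.70 in Ikaros and 43.9% ± 8.53 in Control (SD, n = 18 each), a difference of 1.87 points (-4.06 to 7.81; limma, adjusted p = 0.818). The Spib exon was at 42.2% ± 9.07 and 40.6% ± 17.7, a difference of 1.65 points (-7.49 to 10.8; adjusted p = 0.746). Without the 3 libraries that stood apart the difference was 0.812 points at the Irf4 exon and -0.837 points at the Spib exon. Differences of several points in either direction were therefore not detectable at these clusters. Among the promoter clusters other than the Bach2 intron, the differences lay between -0.168 and 0.215 points.

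Change over time was asked in each series and between the series. The 0 h cells were obtained separately, so differences from 0 h may also hold that difference in collection. None of the 21 clusters passed in the Ikaros series, in the Control series or in the test of different time courses, and none had an unadjusted p under 0.05 in any of the 3 tests (limma, moderated F test). Over all 16734 clusters the shares past the adjusted threshold were 0%, 0.0120% and 0%, and those at an unadjusted p under 0.05 were 5.22%, 4.83% and 5.12%. The smallest p-values were 0.0901 at the far upstream cluster of Pax5 in Ikaros (adjusted p = 0.969), 0.167 at the Bcl11a intron in Control (adjusted p = 0.991) and 0.0599 at the Tcf3 coding exon between the series (adjusted p = 0.965).

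At the promoter clusters the 24 h mean differed from the 0 h mean by at most 0.528 points in either series, at the Bach2 promoter in Ikaros. With the libraries that stood apart left out, the widest shifts were at the Bcl11a promoter cluster that rests on 4 positions, 1 point in Ikaros and -1.08 points in Control. With all libraries, the widest shift in mean in the Ikaros series was at the Irf4 exon, where the libraries had 34.9%, 44.1% and 40.3% at 0 h and 65.6%, 61.4% and 36.2% at 24 h. At 24 h a single library was as low as those at 0 h and the other pair lay above them. The means were 39.8% ± 4.62 and 54.4% ± 15.9 (SD, n = 3 each), 14.7 points apart. In Control they were 35.8% ± 10.9 and 46.0% ± 15.3, 10.2 points apart, with libraries from 26.0% to 47.6% at 0 h and from 29.2% to 59.1% at 24 h. Without the 3 libraries that stood apart, which include the lowest Control library at 24 h and the highest at 0 h, the shift was 11.2 points in Ikaros and 24.5 points in Control.

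At the Spib exon the mean went from 37.4% ± 10.6 at 0 h to 46.4% ± 6.99 at 24 h in Ikaros (SD, n = 3 each) and from 40.0% ± 34.7 to 45.5% ± 7.30 in Control. The wide Control spread at 0 h came from libraries at 0%, 58.0% and 61.9%, and the direction of the Control shift rests on the library at 0%. When the 3 libraries that stood apart were left out, the Control mean was 59.97% at 0 h and 45.3% at 24 h, a shift of -14.6 points in place of 5.55, and the Ikaros shift was 10.9 points in place of 9.08. The lowest condition mean was in Control at 2 h, at 23.3% ± 13.9. Downstream of Spib the 24 h mean minus the 0 h mean was -3.65 points in Ikaros and 10.4 points in Control. With all libraries, the latter was the widest shift in Control. Leaving out those that stood apart gave -11.6 and 7.43 points.

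**Figure D4:**
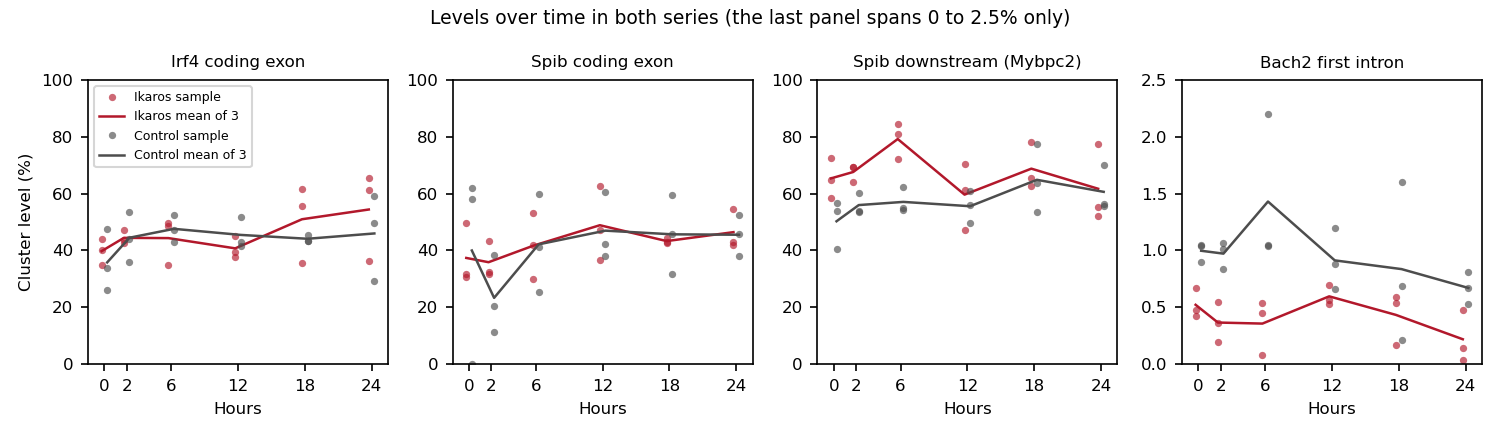
Level (%) of the Irf4 exon, Spib exon, Spib downstream and Bach2 first intron clusters over time (hours) for each library (points) and as the mean of 3 (lines) in Ikaros and Control. Replicates at a single time point differ by up to 61.9 points at the Spib exon, and the Ikaros points of the downstream Spib cluster lie above those of Control at 0, 2 and 6 h.

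The same tests were read for other genes of the pathway. Of 24 further regulators of the B lineage, all but Mef2c and Prdm1 had a cluster. Of their 41 promoter clusters with complete values, 32 were under 10% (median 0.541%). Among the 58 clusters of these genes with complete values, which were the ones tested, 3 (5.17%) differed between the series, close to the 4.84% of all clusters. The promoter and coding exon cluster of Id3, an inhibitor of E2A proteins (chr4:136143719-136144272), was at 31.7% ± 3.54 in Ikaros and 23.6% ± 2.12 in Control (SD, n = 18 each), 8.16 points higher (6.16 to 10.2; limma, adjusted p = 1.23e-06). The lowest Ikaros library was at 27.5% and the highest Control library at 26.8%. How many of all clusters show no overlap over 18 and 18 libraries was not counted. The other clusters of Id3 were not among the 3 called.

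The promoter cluster of Ikzf3, which encodes the Ikaros relative Aiolos (chr11:98545724-98546059), was at 34.8% ± 6.26 in Ikaros and 25.5% ± 2.96 in Control, 9.26 points higher (6.24 to 12.3; adjusted p = 7.89e-06). The Ikzf3 libraries ranged from 23.5% to 50.2% in Ikaros and from 19.4% to 30.1% in Control. At Sox4, an HMG-box factor of early lymphoid cells (chr13:28952014-28952633, coding exon), the level was 0.552% ± 0.347 in Ikaros and 1.34% ± 0.621 in Control, 0.785 points lower (adjusted p = 0.0220), again close to 0%. Among 25 target genes of B-lineage factors, 17 had no cluster, Rag1, Rag2 and Il7r among them. The other 8 genes had 10 clusters with complete values, and 0 of these differed between the series. No cluster of either list passed a test of change over time.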

How the data were processed

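RRBS reads were trimmed by the authors, mapped to GRCm38 (mm10) with Bismark 0.10.1, and their methylation levels were smoothed within CpG clusters with BiSeq, after the coverage of unusually deep sites had been limited. In the deposited tables a smoothed level is a fraction between 0 and 1, and an M-value is its log2 ratio of methylated to unmethylated share, after the authors had limited the level to 0.01 to 0.99. Smoothing makes neighbouring positions alike, so clusters and not positions were tested. The study's methods give an approximate number of reads per sample, but these tables give no coverage, so the depth at each position is unknown. No coverage minimum or counting error could be set.

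Groups, replicates and batches were taken from the labels. Clusters were formed from positions at most 100 bp apart, and the mean M-value over the positions with a value in all 36 libraries was tested for 16734 clusters with limma 3.58.1 in R 4.3.3 (lmFit, eBayes, Benjamini-Hochberg adjustment, adjusted p under 0.05). The series were compared with time as a factor, change over time by limma's F test on the libraries of a single series, and different time courses by the interaction terms. Differences in percentage points and their 95% intervals come from limma on the levels. The limma steps were tested on simulated data. Replicates are batches of the same cell populations, and the fit reported has no batch term. Its p-values measure the spread between libraries of these populations, with the libraries of a batch treated as independent.

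Within a time point, same-numbered libraries of both series came from the same batch of the labels. Over these 18 pairs the deviations from the condition means had a mean correlation of -0.00665 (-0.0442 to 0.0219). Over all 198 pairs with the same number in different conditions, where number 2 joins batch 2 at 0 h and batch 3 at the other times, it was -0.000326 (-0.0491 to 0.0733), and a fit with the replicate number as a block is given among the alternatives.

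Clusters were named where they were promoter clusters, past a threshold, of intermediate level, the lowest or highest of a gene body, or of the smallest p in a test. The genes and lists were chosen with earlier results of these data known. Of the further regulators and target genes, the clusters past the threshold were named. Python 3.11.15, numpy 2.4.6 and pandas 2.3.3 were used. The alternatives were other positions, gaps, scales, covariates and left-out libraries, and leaving out the 3 libraries that stood apart, or each library from the difference at its time point, was added after the data were seen.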

Additional observations from a re-analysis of the deposited data

How the results depend on the processing

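Between the series, 2 of the 21 clusters were called in the fit reported. With the replicate number as a block, in which number 2 joins batch 2 (0 h) and batch 3 (all other times), the number was again 2 (820 clusters over the table against 810), the adjusted p was 0.0302 at the Bach2 first intron and 0.0495 downstream of Spib, and no other call among the 21 changed. With batch itself as a factor the number was 2 (822 over the table), with adjusted p of 0.0322 and 0.0481. The number was 0 with the median over positions (543 over the table), 0 without the 0 h samples (776 over the table), and 1 with the shares of missing and 0-or-1 values as covariates (335 over the table). It ranged from 0 to 2 when a replicate number or a single library was left out, with 368 to 543 clusters over the table when a replicate number was left out. Without a replicate number the adjusted p was 0.112 to 0.268 for Bach2 and 0.0669 to 0.237 for Spib downstream. Bach2 passed without any single library (0.0139 to 0.0469).

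Spib downstream failed without each of 20 libraries (0.0506 to 0.0680), namely Control 0 h replicate 3, 2 h replicates 2 and 3, 6 h replicates 1, 2 and 3, 12 h replicate 2, 18 h replicates 1 and 2 and 24 h replicates 1 and 3, and Ikaros 0 h replicates 1 and 2, 2 h replicates 1 and 3, 6 h replicates 1 and 3, 12 h replicate 1, 18 h replicate 3 and 24 h replicate 2. Bach2 also failed with gaps of at most 50 bp (0.0571) and without the 0 h samples (0.111), and Spib downstream with the median (0.152) and without the 0 h samples (0.145). The Ebf1 inner intron passed without replicate 2 (0.0406). Neither called cluster changed sign in any alternative run of the series test, while the sign of the M-value difference changed in at least 1 alternative at 13 of the 19 clusters that were not called. The cause of these changes was not tested. Without the 3 libraries that stood apart, the Control difference between 24 h and 0 h moved from 10.2 to 24.5 points at the Irf4 exon and from 5.55 to -14.6 points at the Spib exon. In the time tests 0 of the 21 clusters were called under every alternative run. A start window of 500 or 2000 bp gave 7 or 12 promoter clusters, and flanks of 0 or 10 kb gave 15 or 23 clusters. No coverage minimum was run, because these tables give no coverage, so how far depth limits each value is unknown.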

Other observations

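For the 3 clusters with the smallest p between the series, the clusters with the most similar levels over the 36 libraries were looked up in the whole table, as a description. The libraries are shared by all of these clusters, so their series difference and any library that stands apart enter each correlation. The Bach2 first intron was most like an intergenic cluster at chr6:47758068-47758162 (Pearson's r = 0.803), whose mean level was 5.81%, followed by an intergenic cluster at chr2:30711932-30712357 (r = 0.742) and by a cluster in Bcor, a BCL6 corepressor (r = 0.717). The cluster downstream of Spib was most like clusters at 4930479H17Rik (r = 0.738, mean level 10.9%), Dock9 (r = 0.650, mean level 83.3%) and Zfp358 (r = 0.648, mean level 6.45%). The Tcf3 coding exon was most like clusters at Skida1 (r = 0.628), Snapc4 (r = 0.625) and Luzp1 (r = 0.623). None of these was a cluster of another of the 10 genes.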
